A study of Mus musculus with 2 samples.

Results

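The genes described here are 33 genes of glycolysis and of the hypoxia response, of 23889 gene symbols measured by RNA sequencing in mouse embryonic stem cells (mESCs) of the E14 line, which the labels trace to a 19/Ola mouse. They were picked by gene symbol from named pathways, and the list was chosen with the values of these same libraries known, so the difference between the libraries is given below as a description and no test is made on it. By role they comprise 4 transporters, 18 enzymes from hexokinase to lactate dehydrogenase, 2 pyruvate dehydrogenase kinases, 3 genes of oxygen sensing and 6 further genes of the hypoxia response. One library came from cells transfected with a control shRNA and 1 from cells transfected with an USP21 shRNA, which depletes the deubiquitinase USP21. The labels name no other modification. Both cultures grew without feeder cells on gelatin, in medium with 15% serum and 1000 U/ml LIF, and were collected 3 days after knockdown. The labels do not say which USP21 shRNA was used, nor the oxygen level or the density of the cultures. With 1 library per group, no difference can be set against the spread between replicates. The purpose of the comparison, as the design text gives it, was the expression profile after USP21 knockdown.

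Glycolysis splits glucose into pyruvate in the cytosol, and lactate dehydrogenase turns pyruvate into lactate when it is not passed on to the mitochondria. Naive mESCs are known to use both glycolysis and respiration, whereas the primed cells of the later epiblast lean on glycolysis. When oxygen is short, the prolyl hydroxylases that mark HIF1α for destruction slow down, and HIF1α then activates genes whose promoters hold the hypoxia response element. Many glycolytic genes are among its known targets, as are genes of the prolyl hydroxylases themselves, of mitochondrial removal and of blood vessel growth.

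The element has a core of ACGTG or GCGTG. These 5 letters were searched on both strands (CACGT and CACGC on the printed strand) in the 250 bases before each annotated RefSeq start (build GRCm38.p6), with overlapping matches counted as 1. Of the 33 genes, 30 had a window, and Slc2a3, Ndrg1 and Ndufa4l2 were not matched. At least 1 core stood in 27 of these 30 genes (90%) when the richest window of each was taken, against 63% of the 9000 genes with a window and an FPKM of at least 1, and 41.5% of all 27025 genes with a window. All 7 matched genes that were at least 1.5-fold lower with the USP21 shRNA held one, and so did 20 of the other 23. Counted by window, 79.1% of the 43 windows of the 30 genes held a core, against 56.9% of 11519 windows of genes with an FPKM of at least 1. The list was written from pathways that hold known HIF1α targets, so nothing is read from its higher share. A match of letters is not a bound site. The core contains CG, and the 43 windows of these 30 genes had a median of 14 CG dinucleotides, against 16 in windows of genes past that FPKM and 6 in all windows.

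The following stretches of 30 bases are shown because they belong to genes that were lower with the USP21 shRNA, with the core in capitals, 5′ to 3′ on the strand of the gene. They come from chr11:120949037-120949066 (plus strand), chr11:78323010-78323039 (plus strand), chr8:45999987-46000016 (minus strand), chr7:138909597-138909626 (minus strand) and chr8:124949306-124949335 (minus strand) of GRCm38.p6.
Slc16a3: gtgACGTGcgcgggggACGTGccgcgcgac
Aldoc: tccacctctgaggGCGTGgccttaccctag
Ankrd37: ccttcactgcgCACGCGTGctgcggccgcc
Bnip3: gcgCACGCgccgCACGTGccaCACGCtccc
Egln1: ggggccgtggtgtACGTGcagcgcgcgcgg
The windows of 250 bases that hold them include annotated exon bases of the gene itself in GENCODE M21, 105 for Aldoc, 70 for Egln1, 17 for Ankrd37, 14 for Slc16a3 and 13 for Bnip3. The last base before the start is counted as -1. Slc16a3 had 2 cores, whose first bases lay at -27 and -14. Aldoc had 1 in this window, at -50. Ankrd37 had 3, at -241, -155 and -6, and the middle match reads GCGTG on both strands in overlap. Bnip3 held 4, at -117, -108, -99 and -35. Egln1 had 2, at -126 and -68.

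The same length is shown for the pair of lactate dehydrogenase genes, whose values went in opposite directions, and for Egln3. They lie at chr7:46845647-46845676 and chr7:46845744-46845773 (Ldha, plus strand), chr6:142508067-142508096 (Ldhb, minus strand) and chr12:54204087-54204116 (Egln3, minus strand). In GENCODE M21 the 250 bases around each hold no annotated exon.
Ldha at -145: ggtgtcgcagcaCACGTGgagccactcttg
Ldha at -48: cggcccagcctaCACGTGggttcccgCACG
Ldhb: agcgggggagagcGCGTGcacactccagcc
Egln3: atgtgcatctcagACGTGagatccaggttt
The window of the most upstream Ldha start held 3 cores, at -145, -48 and -34. Ldhb, whose level was higher with the USP21 shRNA, held 1, at -126. Egln3 held 1, at -229. Cores were also present in Hk2, Gapdh and Pgam1, whose values differed little. The part of the cores in any difference was not tested, and nothing is read from where they stood.

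The deposited unit is FPKM, which scales fragments to the length of the transcript and to the mapped total, so levels of different genes can be set side by side. Differences are given as log2((FPKM USP21 shRNA + 0.1)/(FPKM control shRNA + 0.1)), a scale on which low genes look closer than they are. A negative value means a lower level with the USP21 shRNA. The targeted gene, Usp21, was at 26.2 FPKM in the control and at 3.49 after the USP21 shRNA, a log2 ratio of -2.87. Summed over all symbols, FPKM came to 613617 (control) and 543206 (USP21 shRNA). The files hold no counts. Among 1439 genes above 0 and under 0.1 FPKM in both libraries, the most frequent log2 of control over USP21 shRNA was -0.31. If most of these genes had equal fragment numbers in both libraries, the control was about 1.24 times as deep as the USP21 shRNA library. That condition was not tested. Rescaling both libraries to the same sum would raise each log2 ratio by about 0.18. The median of the 11927 genes with at least 1 FPKM in either library would go from 0.00 to 0.18. All 8 pluripotency markers were present, from 59 FPKM for Tfcp2l1 to 1849 for Dppa5a in the control library. Their log2 ratios ran from -0.97 to -0.14 with a median of -0.28, against -0.19 for all 973 genes of at least 100 FPKM, and their sum went from 4098 to 3052. Nanog (467.1 and 257.7 FPKM, -0.86) and Tfcp2l1 (59 and 30.2 FPKM, -0.97) were at least 1.5-fold lower. They made up 25% of the 8 markers, against 6.46% of all genes. Sox2 (-0.14) and Klf4 (-0.15) were lower by less than the shift of 0.18 and would be higher after rescaling. The summed FPKM of 6 fibroblast markers went from 19.9 to 7.19, almost all of it from Thy1, and that of 8 markers of differentiated lineages from 21.3 to 25.2, with none of either list at 0 in either library. The part of these marker values in the differences below was not tested.

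All 33 genes reached an FPKM of 1 in at least one library, Car9 only in the USP21 shRNA library. Their share of all FPKM was 1.96% (control) and 1.88% (USP21 shRNA). With the USP21 shRNA 26 of them were lower and 7 higher, the latter counting Pfkl at a log2 ratio of 0.00. The median log2 ratio of the 33 genes was -0.28, against 0.00 over the 11927 genes past the same limit. Of these 11927 genes 5912 were lower and 6015 higher. A level at least 1.5-fold lower was seen for 9 of the 33 (27.3%), against 6.46% of all genes, and 6 of these were at least 2-fold lower, against 2.03%. At least 1.5-fold higher was Ldhb alone, against 7.77% of all genes, and none was 2-fold higher, against 2.3%. With both libraries rescaled to the same sum, 7 of the 33 were 1.5-fold lower and 1 higher, against 3.97% and 14.1% of all genes. Since the list was chosen on these values, nothing is read from these shares.

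**Figure D1:**
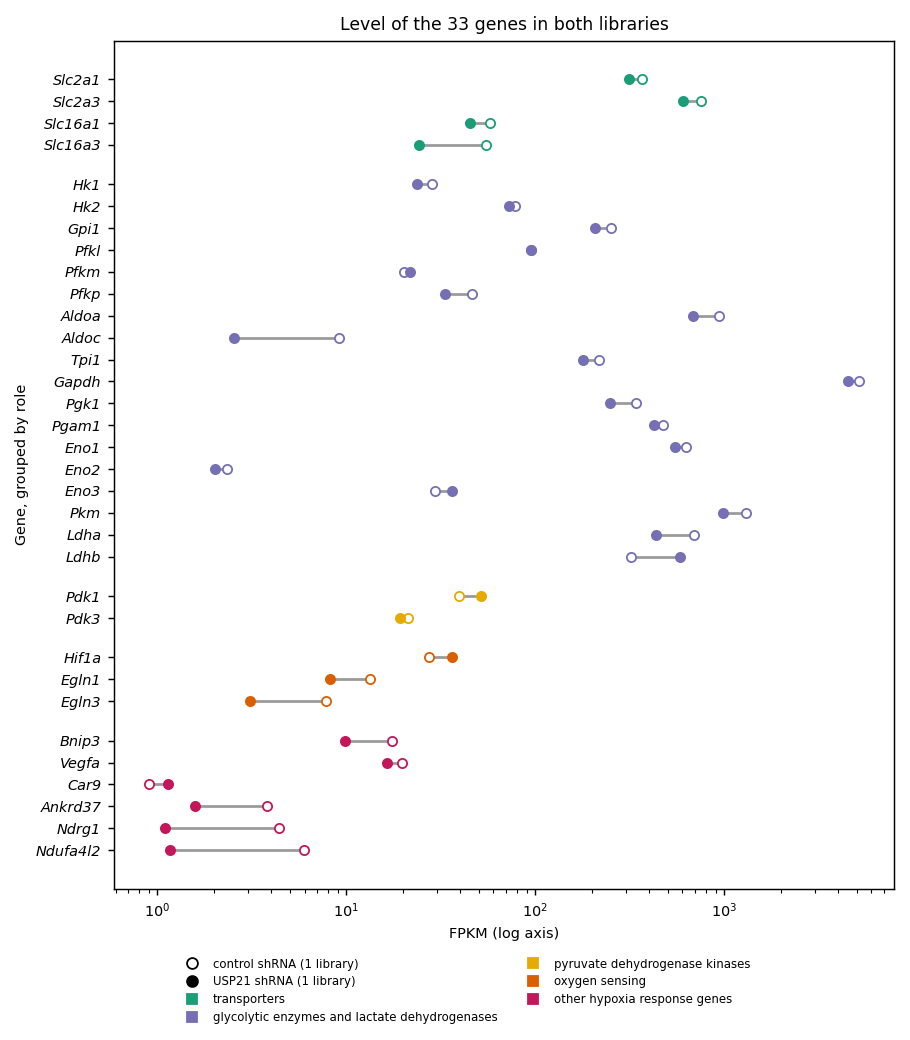
FPKM (log axis) of each of the 33 genes with the control shRNA (open circles) and the USP21 shRNA (filled circles), 1 library each, coloured and grouped by role. The longest lines belong to Ndufa4l2, Ndrg1 and Aldoc, which lie under 10 FPKM, while the abundant enzymes have short lines. Ldhb, Pdk1, Hif1a, Eno3, Pfkm and Car9 have the filled circle on the right, and the circles of Pfkl (95 and 95.2 FPKM) nearly coincide.

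Of the 33 genes 12 reached 100 FPKM in at least one library, and these had log2 ratios from -0.66 to 0.86 with a median of -0.28. All 973 genes at this level had a median of -0.19, with 4.83% at least 1.5-fold lower and 2.26% at least 1.5-fold higher. Lower by any amount were 744 of the 973 genes and 11 of the 12. Among the 12, Ldha was 1.5-fold lower and Ldhb 1.5-fold higher. The other 21 genes also had a median of -0.28, but 8 of them were 1.5-fold lower and none 1.5-fold higher, and all 6 that were 2-fold lower were in this class. Of the 10954 genes from 1 to 100 FPKM, 6.61% were 1.5-fold lower, 8.26% were 1.5-fold higher and 2.15% were 2-fold lower, with a median of 0.02. The level of 100 FPKM was chosen after these values had been seen.

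**Figure D2:**
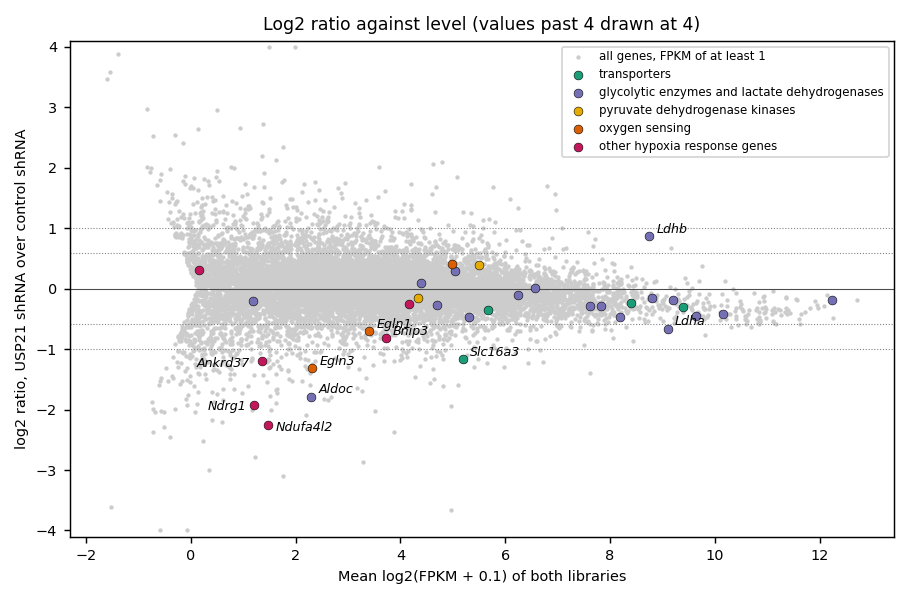
Log2 ratio (USP21 shRNA over control shRNA) against the mean log2(FPKM + 0.1) of both libraries, for 11927 genes (grey) and the 33 genes (coloured by role); dotted lines mark 1.5-fold and 2-fold. Genes at the right, with the highest levels, lie mostly below 0, and the named genes are those past 1.5-fold.

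Glucose enters mESCs through the facilitative transporters GLUT1 and GLUT3. Slc2a3, which encodes GLUT3, had 749.5 FPKM in the control and 604.3 after knockdown (log2 ratio -0.31). Slc2a1, which encodes GLUT1, had 368.3 and 311.8 (-0.24). Both were lower by less than 1.5-fold. Slc2a3 made up 66.3% of the summed FPKM of 6 glucose transporter genes in the control and 65.2% after knockdown, so the make-up of this family was nearly the same. At the other end of the pathway, lactate leaves or enters the cell through monocarboxylate transporters. Slc16a1, which encodes MCT1, had 57.6 and 44.9 FPKM (-0.36). Slc16a3, which encodes MCT4, the form known for lactate export in highly glycolytic cells, had 54.8 and 24.3 FPKM (-1.17). The 2 genes stood at nearly the same level in the control library, and with the USP21 shRNA Slc16a1 held 64.8% of the family's summed FPKM, against 51.2%. Slc16a3 was the only one of the 4 transporter genes past 1.5-fold. A log2 ratio as low was seen in 1.27% of all 11927 genes. Nothing is read from such ranks here or below, since the list was chosen on these values.

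The enzymes from hexokinase to pyruvate kinase, 16 genes, had a median log2 ratio of -0.24, with 13 lower and 3 higher, the latter counting Pfkl at 0.00. One of the 16, Aldoc, was at least 1.5-fold lower (6.25%, against 6.46% of all genes). Lower by any amount were 5912 of all 11927 genes, and 744 of the 973 genes of at least 100 FPKM. Direction and size both depended on the scaling. With both libraries rescaled to the same sum 11 of the 16 were lower, with a median of -0.07, and with the median of genes of like level subtracted 10 of the 16 were, with a median of -0.11. The median of all genes was 0.18 in the first of these settings and -0.00 in the second. Under one of these settings Hk2, Gapdh, Pgam1 and Eno1 were higher instead of lower, and Pfkl, at 0.00, was at -0.04 with the median of genes of like length subtracted.

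Hexokinase commits glucose to the cell by phosphorylating it. Hk2, its most abundant form here, had 78.3 FPKM in the control and 72.4 after knockdown (log2 ratio -0.11), and Hk1 had 28.5 and 23.5 (-0.28). Gpi1, which turns glucose 6-phosphate into fructose 6-phosphate, had 251.5 and 206.3 (-0.29). These steps differed by less than 1.5-fold. Phosphofructokinase makes the main controlled step of the pathway. Its liver form Pfkl had 95 and 95.2 FPKM, and its muscle form Pfkm 20.1 and 21.6 (0.10). Its platelet form Pfkp had 46.2 and 33.4 (-0.47), so the share of Pfkp in the family went from 28.6% to 22.2% and that of Pfkl from 58.9% to 63.4%.

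Aldolase cleaves the 6-carbon sugar into triose phosphates. Aldoa, which held 99% of the family's FPKM, had 933.4 in the control and 682.0 after knockdown (log2 ratio -0.45). Aldoc, the form best known from brain, had 9.08 and 2.55 (-1.79), a 3.46-fold lower level with the USP21 shRNA. The aldolases thus differed in the same direction by unequal amounts, and Aldoc contributed less than 1% of aldolase transcripts in either library. Tpi1, which interconverts the trioses, had 216.3 and 178.3 FPKM (-0.28). Gapdh, which makes the first reducing equivalents and was among the 3 most abundant of all symbols in each library, had 5149 and 4515 (-0.19, but 0.05 with the median of genes of like level subtracted). Pgk1, which makes the first ATP of the pathway, had 340.5 and 246.8 (-0.46).

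Pgam1, which moves the phosphate group of phosphoglycerate, had 472.2 FPKM in the control and 424.1 after knockdown (log2 ratio -0.15, but 0.02 after rescaling to equal sums). Enolase then makes phosphoenolpyruvate. Eno1, its general form, had 625.6 and 547.4 (-0.19). Eno2, known from neurons, had 2.33 and 2.02 (-0.20). Eno3, known from muscle, was higher with the USP21 shRNA, with 29.6 and 36.3 (0.30). Eno3 made up 4.5% of enolase FPKM in the control and 6.2% after knockdown. Pkm, pyruvate kinase, whose splice forms the deposited values do not separate, had 1308 and 981.6 (-0.41).

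Several of these abundant transcripts have near-identical copies in the genome, and how fragments were divided among them is not given in the sources used here. Of the words of 31 bases in the transcript, other annotated genes share 92.1% for Gapdh, 77.2% for Eno1, 68.3% for Pgk1, 50.9% for Pkm and 42.1% for Pgam1. The retrocopy of Eno1, Eno1b, is listed in the files with 459.9 and 371.5 FPKM, and the sum of both had a log2 ratio of -0.24. The 9 listed genes that share at least 5% of the words of Gapdh summed to 5.34 and 5.54 FPKM, so adding them left its log2 ratio at -0.19. Of the 9 genes that were 1.5-fold lower, Slc16a3, Aldoc, Egln1, Egln3, Ndrg1 and Ndufa4l2 shared no such word with another gene, Ankrd37 shared 1.11%, Bnip3 26.6% and Ldha 34.2%. Of the words of Bnip3, 23.2% are shared with Gm16439, which is not analysed here.

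Lactate dehydrogenase was the family whose make-up differed most. Ldha encodes the M subunit, which is known to favour the making of lactate, and Ldhb the H subunit, which is known from tissues that take lactate up. Ldha had 689.1 FPKM in the control and 436.0 after knockdown (log2 ratio -0.66). Ldhb had 319.0 and 581.0 (0.86), a 1.82-fold higher level. The order of the subunits was therefore turned around, with Ldha at 68.3% of the family in the control library and 42.9% in the other, and Ldhb at 31.6% and 57.1%. Their sum with Ldhc was nearly the same, 1009 and 1017 FPKM. Of all 11927 genes 96.7% had a log2 ratio at or below that of Ldhb. Other genes share 34.2% of the words of Ldha and 41.4% of those of Ldhb, the latter with a single gene, Gm5514, which is not analysed here. After rescaling to equal sums the log2 ratios were -0.48 for Ldha, no longer past 1.5-fold, and 1.04 for Ldhb.

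**Figure D3:**
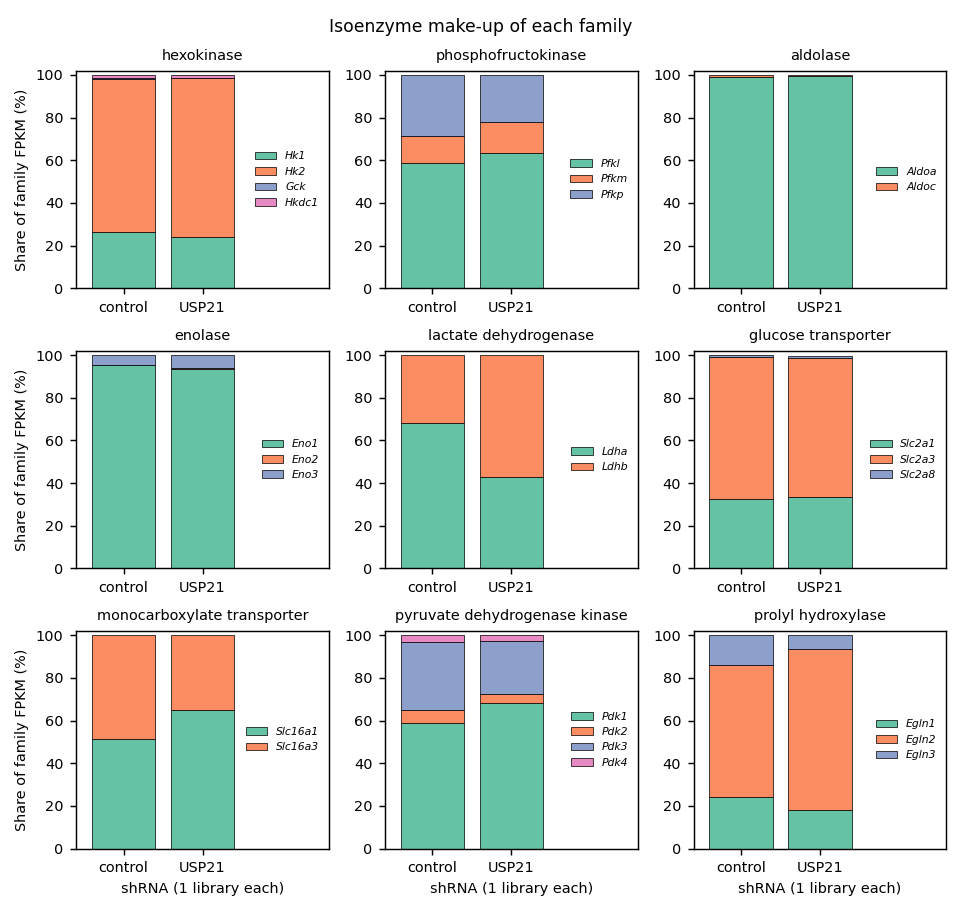
Share (%) of each isoenzyme or related transporter in the summed FPKM of its family, in the control shRNA and the USP21 shRNA library (1 each); members under 0.3% in both are not drawn. Lactate dehydrogenase is mostly Ldha (68.3%) in the control and mostly Ldhb (57.1%) with the USP21 shRNA, while hexokinase, aldolase, enolase and the glucose transporters keep nearly the same make-up.

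Pyruvate dehydrogenase kinases shut off the enzyme that feeds pyruvate to the mitochondria, and their genes respond to hypoxia in many cells. Pdk1 had 39.6 FPKM in the control and 51.8 after knockdown (log2 ratio 0.39), and Pdk3 had 21.2 and 19.1 (-0.15, but 0.02 after rescaling to equal sums). The share of Pdk1 in the 4 genes of the family went from 59% to 68.3%. Neither gene was past 1.5-fold.

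Oxygen is sensed by prolyl hydroxylases, which act on HIF1α. Hif1a had 27.5 FPKM in the control and 36.3 after knockdown (log2 ratio 0.40). The transcript level says nothing of the protein, which is set mainly by its destruction. Egln1, which encodes the prolyl hydroxylase PHD2, had 13.4 and 8.17 (-0.71). Egln3, which encodes PHD3 and is itself a known HIF target, had 7.80 and 3.07 (-1.32). Both hydroxylase genes were therefore lower while Hif1a was higher, and the summed FPKM of Egln1, Egln2 and Egln3 went from 55.9 to 45.8. Egln2, which encodes PHD1 and held most of that sum, had 34.7 and 34.5. Its share of the 3 genes was 62.1% in the control and 75.4% after knockdown.

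The 6 further genes of the hypoxia response had a median log2 ratio of -1.01, the lowest of the 5 roles. Ndufa4l2, a HIF target that resembles a subunit of the respiratory chain and is known to dampen respiration in hypoxia, had 5.99 FPKM in the control and 1.17 after knockdown (-2.26). This was the largest difference of the 33 genes, 4.8-fold, and 0.117% of all genes had a log2 ratio as low. Ndrg1, a stress-induced gene of cell growth and differentiation, had 4.40 and 1.09 (-1.92). Ankrd37, a small ankyrin-repeat gene known as a HIF target, had 3.79 and 1.59 (-1.20). All 3 were low in the control library already, so they rest on few fragments, a number that the files do not give. With a pseudocount of 1 their log2 ratios were -1.69, -1.37 and -0.89.

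Bnip3, which marks mitochondria for removal, had 17.4 FPKM in the control and 9.82 after knockdown (log2 ratio -0.82). Vegfa, the growth factor of blood vessels, had 19.6 and 16.4 (-0.25). Car9, a carbonic anhydrase of the cell surface and among the best-known hypoxia markers, had 0.907 and 1.14 (0.30) and stood near the limit of 1 FPKM in both libraries. The group was therefore not uniform, with 4 of 6 genes at least 1.5-fold lower and none 1.5-fold higher, against 6.46% and 7.77% of all genes. A limit of 5 FPKM was reached only by Bnip3, Vegfa and Ndufa4l2. Of these, 2 were at least 1.5-fold lower, Bnip3 and Ndufa4l2, against 4.62% of all genes at that limit. Exons of other genes overlap 26.4% of the exon bases of Ankrd37, on the opposite strand by Lrp2bp, which had 0.027 and 0.0349 FPKM. They overlap 22.3% of those of Bnip3 and 2.92% of those of Ndufa4l2, the latter on the opposite strand by Shmt2, which had 98.7 and 106 FPKM, and whether the libraries kept the strand is not given in the sources used here.

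Genes of the same pathways outside the 33 were described from lists written by pathway. Of 19 further hypoxia-induced genes 17 passed the filter, with a median log2 ratio of -0.06 (0.11 after rescaling to equal sums), 1 of them at least 1.5-fold lower and 1 higher. P4ha2, a collagen prolyl hydroxylase, had 24.2 FPKM in the control and 12.8 after knockdown (-0.92), whereas Ak4, a mitochondrial adenylate kinase, had 14.8 and 29.5 (0.99). Mxi1, an antagonist of Myc, had 11.1 and 7.49 (-0.56). The median of this wider list therefore lay near that of all genes, 0.00 and, after rescaling, 0.18. Of 11 further oxygen-sensing genes 10 passed, with a median of 0.06 (0.24 after rescaling). Cul2, the scaffold of the ubiquitin ligase that removes HIF1α, was 1.5-fold lower at 34.2 and 18.7 (-0.87), Hif1an, the asparagine hydroxylase of HIF1α, had 9.74 and 13.2 (0.44), and Tceb1, an elongin of the same ligase, had 151.3 and 121.6 (-0.32).

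**Figure D4:**
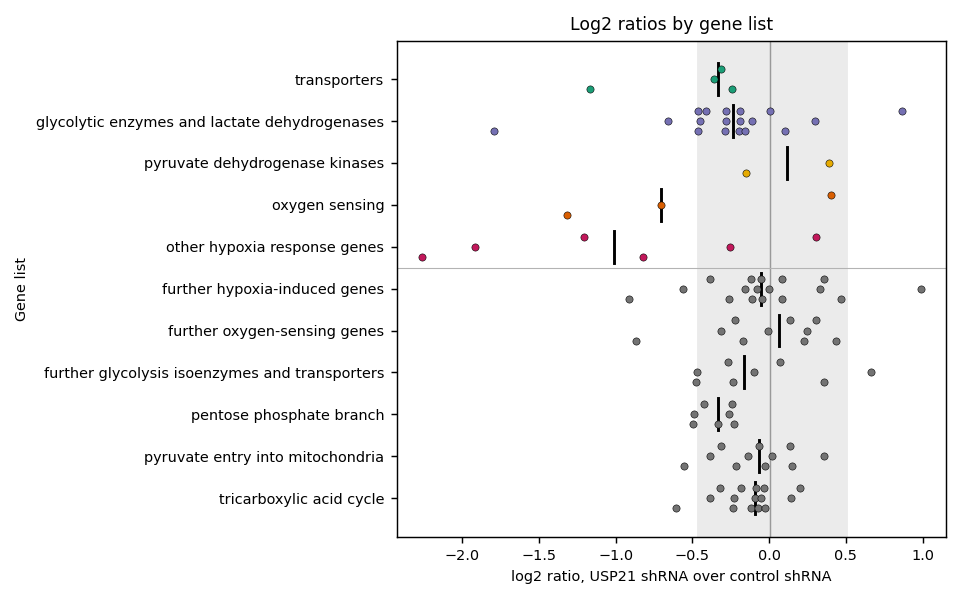
Log2 ratio (USP21 shRNA over control shRNA) of each gene that passed the filter, by role of the 33 genes (coloured) and by further list (grey), with the median as a black bar; the shaded band holds the middle 80% of all 11927 genes, from -0.46 to 0.51. The medians of the oxygen-sensing (-0.71) and other hypoxia response genes (-1.01) lie left of the band, and those of the further lists inside it. Of these 2 roles Hif1a, Vegfa and Car9 lie inside the band. Single genes of the further lists, such as P4ha2 (-0.92) and Cul2 (-0.87), also lie left of it, while Ak4 (0.99) and Slc2a4 (0.66) lie right of it.

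Of 18 further glycolytic isoenzymes and transporters 8 passed the filter, with a median log2 ratio of -0.17 (0.00 after rescaling). Slc2a4, which encodes the insulin-responsive GLUT4, was the one past 1.5-fold, though not with a pseudocount of 1 and not with a limit of 5 FPKM, which it did not reach, with 1.08 FPKM in the control and 1.76 after knockdown (0.66). Pgam2, the muscle mutase, had 4.54 and 3.23 (-0.48), and Pfkfb1, which sets the level of fructose 2,6-bisphosphate, had 8.19 and 5.89 (-0.47). The pentose phosphate branch, which leaves glycolysis at glucose 6-phosphate, had a median of -0.33 (-0.15 after rescaling), and none of its genes was past 1.5-fold. It was lower in 7 of 7 genes, against 5912 of all 11927 genes. Tkt, transketolase, had 191.4 and 135.5 (-0.50), Pgls had 87.1 and 61.9 (-0.49) and Rpe had 34.2 and 25.4 (-0.43).

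Genes for the entry of pyruvate into mitochondria, 11 measured of 13 symbols written (Brp44 and Brp44l are older names of Mpc2 and Mpc1), had a median log2 ratio of -0.07 (0.11 after rescaling) with none past 1.5-fold. Pdp2, a phosphatase that counters the Pdk enzymes, had 7.76 and 5.25 FPKM (-0.55), Pdk2 had 4.05 and 3.08 (-0.38) and Pdhb, a subunit of pyruvate dehydrogenase, had 138.2 and 177.4 (0.36). The tricarboxylic acid cycle had a median of -0.09, but of 0.08 after rescaling, when the median of all genes was 0.18. Of its genes 13 of 15 were lower, against 5912 of all 11927 genes and 744 of the 973 of at least 100 FPKM. Citrate synthase (Cs) was the one of the 15 past 1.5-fold, though not after rescaling, at 102.7 and 67.4 (-0.61). Sdhb had 112.9 and 86.5 (-0.38) and Fh1 had 151.9 and 121.6 (-0.32).

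Over all genes the log2 ratio went with transcript length (Spearman rho 0.32; the 11378 genes share both libraries and are not independent). The median was -0.16 in the shortest of 5 equal groups by length and 0.17 in the longest. Of the 33 genes 7 lay in the shortest group and 2 in the longest, and their median length was 2662 bases against 2906 for all genes. Ndufa4l2 and Ankrd37 have the shortest coding transcripts of the 33 with 934 and 927 bases, whereas Slc16a3 has 4335. With the median of the 500 genes nearest in length subtracted, the log2 ratios were -2.09 for Ndufa4l2, -1.91 for Ndrg1, -1.79 for Aldoc, -1.28 for Egln3, -1.25 for Slc16a3 and -1.02 for Ankrd37, and 0.98 for Ldhb. All 6 genes that were 2-fold lower were 2-fold lower in this setting too, where 1.68% of all genes were. The part of transcript length in these differences was not tested. Nothing is read from the count, since the list was chosen on these values.

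**Figure D5:**
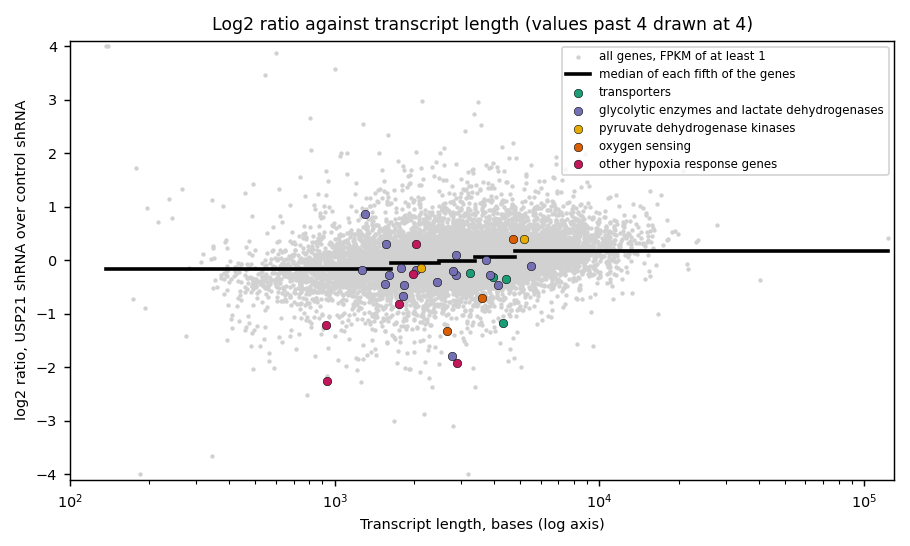
Log2 ratio (USP21 shRNA over control shRNA) against transcript length in bases (log axis) for 11378 genes (grey) and the 33 genes (coloured by role); black bars give medians of 5 equal groups of genes by length. The bars climb from -0.16 to 0.17, and the 6 genes at or below -1 lie under the bar of their own length.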

How the data were processed

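RNA from 2 mESC cultures was sequenced, 1 library per group, named by the sample titles. For each library the authors deposited a list of gene symbols with FPKM. The submitters' processing notes name CASAVA 1.8.2, TopHat2 2.0.14, Cufflinks 2.2.1 and mm9, without roles; annotation, strand and filters are not given in the sources used here. From the deposited FPKM values the log2 ratio was computed with a pseudocount of 0.1, and genes reaching 1 FPKM in either library were kept. No p-value was computed, since there are no replicates, and with no counts no interval or floor was either. Calls were made at 1.5-fold and 2-fold. The members and lists were chosen with earlier results of these data known. Every member is named. Of each further list, genes past 2-fold and the 3 with the largest change are named. Transcript lengths and words of 31 bases came from GENCODE M21, with the transcript of the longest coding sequence for each symbol (95.4% of genes). Promoter windows came from RefSeq (GRCm38.p6), since the files hold no coordinates. Alternatives were pseudocounts of 1 and 0.01, filters at 5 or none, equal sums, a median of 0, a length correction and, chosen after seeing the data, a level correction (500 nearest genes each). The functions were tested on simulated data. Python 3.11.15, numpy 2.4.6, pandas 2.3.3 and matplotlib 3.10.9 were used.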

Additional observations from a re-analysis of the deposited data

How the results depend on the processing

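The median log2 ratio of the 33 genes, -0.28, was -0.10 with both libraries rescaled to equal sums (TPM) and -0.18 with the median of the 500 genes nearest in level subtracted. The median of all genes, 0.00, was 0.18 with equal sums and -0.00 with the level correction. In these 2 settings 1 gene, Ldhb, was at least 2-fold higher, where none was otherwise. The number at least 1.5-fold lower, 9, ran from 7 to 9, and the number at least 2-fold lower, 6, from 5 to 6, when all 33 genes were counted. Of the 33 genes 21 were lower and 6 higher in every one of 6 alternatives, and the sign of Hk2, Pfkl, Gapdh, Pgam1, Eno1 and Pdk3 changed in at least 1. Slc2a1, counted among the 21, was at -0.00 with the level correction. Slc16a3, Aldoc, Egln3, Bnip3, Ankrd37, Ndrg1 and Ndufa4l2 were 1.5-fold lower in every one of the 6 alternatives, and Aldoc, Egln3, Ndrg1 and Ndufa4l2 2-fold lower. The alternatives reuse the same values on which the list was chosen. The share of all genes that keep their direction or call in every alternative was not computed. Nothing is read from these counts. Over all genes the share 2-fold lower, 2.03%, was 0.838% with a pseudocount of 1 and 1.1% at an FPKM of at least 5, and the share 2-fold higher, 2.3%, was 0.906% and 1.35%. With equal sums the shares were 1.33% and 3.86%, and those at 1.5-fold 3.97% and 14.1% in place of 6.46% and 7.77%. A change under 0.1 on the log2 scale was taken as none, since no spread between replicates exists. By that measure equal sums moved all 33 single genes by a shift of about 0.18, the level correction 13, the length correction 8 and a pseudocount of 1 moved 6. No paired analysis was possible because each group has 1 library. Isoenzyme shares moved by under 1 percentage point without isoenzymes under 1 FPKM.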
